A study of Homo sapiens with 30 samples.

Results

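The comparison sets a GABARAP knockout line beside a GABARAPL1 knockout line of the same human factor VIII producing cells. Its members are 6 of the 30 libraries of the series, chosen by their titles and genotype labels: 3 of the line numbered 96, in which CRISPR had been aimed at GABARAP, and 3 of the line numbered 36, in which it had been aimed at GABARAPL1. Both lines derive from HEK28, a HEK293 (human embryonic kidney) line. Per the series' design text, HEK28 secretes large amounts of coagulation factor VIII. Both lines, like HEK28, expressed the factor VIII transcript, at levels given below. Neither line was treated, and both were grown to about 70% confluency. The labels give no guide sequence and do not say whether a line is 1 clone or whether its 3 libraries come from separate cultures. The p-values below come from 1 model of all 30 libraries unless another fit is named. They measure the spread between libraries within groups, pooled over all 10 groups, which may be technical. The other 24 libraries, in groups of 3, are 6 further HEK28 knockouts (CANX, CALR, LMAN1, MCFD2, GABARAPL2 and ATG7), HEK28 itself and the parental HEK line.

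GABARAP and GABARAPL1 are paralogs of the ATG8 family, small ubiquitin-like proteins that ATG7 and its partner enzymes attach to membrane lipid during autophagy. Once attached they hold cargo receptors and help the autophagosome close and meet the lysosome, and members of the family also act in vesicle traffic between the endoplasmic reticulum, the Golgi and the cell surface. The series' design text asks what single knockouts do to factor VIII secretion. Because the paralogs are alike, the first question for 3' RNA-seq, which reads tags near the 3' end of transcripts, is whether their transcripts can be told apart. To show how far the paralogs differ, the first 150 bases of the 2 coding sequences are printed, read from GENCODE 29 transcripts (GRCh38), with the differing bases in capitals.
GABARAP: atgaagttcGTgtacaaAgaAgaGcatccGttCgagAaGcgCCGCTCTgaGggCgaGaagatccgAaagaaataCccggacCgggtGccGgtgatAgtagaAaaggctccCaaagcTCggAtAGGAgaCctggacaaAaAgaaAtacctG
GABARAPL1: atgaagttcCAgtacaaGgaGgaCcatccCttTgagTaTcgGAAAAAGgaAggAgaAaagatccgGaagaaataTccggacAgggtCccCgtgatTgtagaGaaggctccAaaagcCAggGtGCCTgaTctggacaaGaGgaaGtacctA
Of the 354 coding bases, stop codon included, 272 were the same (76.8%), and 39 of the 150 shown differ. The longest run of identical bases between any annotated transcript of GABARAP and any of GABARAPL1 was 14. GABARAPL3, a processed pseudogene that is 95.5% identical to the GABARAPL1 coding sequence, shares a run of 70 bases with it.

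The 6 libraries held from 436320 to 1197022 reads in genes (GABARAP knockout 541969, 475108 and 1132686; GABARAPL1 knockout 1064571, 436320 and 1197022), against 153085 to 3970421 in the series. Pearson's r across genes was 0.955 to 0.977 for replicate pairs of the same line. Of 20 HEK293 markers 16 are in the table and 11 to 13 had reads in each library, among them VIM and CDH2 in all 6, with a summed level of 764 to 784 CPM (reads scaled to the library total) in the GABARAP and 788 to 822 in the GABARAPL1 knockout. Whole reads were not recovered for the markers NEFL and NEFM, so these counts and sums leave them out. Of 10 blood cell markers 6 are in the table, led by the globin genes HBA1, HBA2 and HBB. Their sum varied within both lines, from 11.1 to 204 CPM (3 to 6 markers with reads) in the GABARAP and from 2.29 to 94.9 CPM (1 to 6 with reads) in the GABARAPL1 knockout. Kidney tubule markers summed to 5.54 to 7.06 CPM in the GABARAP and 9.17 to 11.3 in the GABARAPL1 knockout, fibroblast markers to 45.0 to 99.6 and 91.7 to 114, endothelial markers to 12.9 to 27.4 and 18.3 to 34.8, neuron markers to 42.4 to 53.9 and 40.4 to 75.6, and 0 of 7 hepatocyte markers are in the table.

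GABARAPL1 (chr12:10212458-10223130) stood lower in its own knockout than in the GABARAP knockout, whereas GABARAP (chr17:7240014-7242770) did not stand clearly lower in its own knockout. Levels here are log2 reads per gene length and library size, as deposited. GABARAPL1 read 1.16, 0.57 and 1.34 in the 3 GABARAPL1 knockout libraries, from 19, 5 and 24 reads, and 2.56, 2.98 and 2.63 in the GABARAP knockout libraries, from 26, 30 and 57 reads. The lines did not overlap. The log2 difference, here and throughout GABARAP minus GABARAPL1 knockout, was 1.70 ± 0.40 (SE, 3.25-fold), with adjusted p = 0.0596 (limma over all 30 libraries, Benjamini-Hochberg), so it just missed the threshold of 0.05. It passed at adjusted p = 0.00691 when only the 24 knockout libraries were fitted and at 0.0065 with voom weights, and without 1 of the 6 libraries it ran from 0.138 to 0.28. In the 18 libraries of the other 6 knockouts GABARAPL1 ran from 1.05 to 3.19, a range that holds the whole GABARAP knockout and reaches down to 2 of the 3 GABARAPL1 knockout libraries. Their mean was 2.14, between those of the GABARAPL1 knockout (1.02) and the GABARAP knockout (2.72). HEK28 read 1.73, 0.70 and 2.07 and the parental HEK line 0.66, 2.01 and 2.51, from 2 to 31 reads per library. Both overlapped the GABARAPL1 knockout. GABARAPL1 lies on chromosome 12, whose 600 tested genes had a median difference of 0.14.

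GABARAP itself read 5.07, 5.29 and 4.29 in the GABARAP knockout, from 9, 9 and 11 reads, and 5.23, 5.96 and 4.67 in the GABARAPL1 knockout, from 20, 14 and 15 reads. The lines overlapped, and the difference was -0.40 ± 0.46 (SE; adjusted p = 0.94, limma). The libraries labelled GABARAP knockout thus still held reads of the targeted gene; a small insertion or deletion can disrupt a protein and leave its transcript, so the transcript level does not check this label, and protein was not measured. The third paralog GABARAPL2 (-0.40 ± 0.48), ATG7 (-0.35 ± 0.56), the E1-like enzyme of the family, and MAP1LC3B (-0.56 ± 0.46), of the LC3 branch, did not pass (adjusted p of 0.947, 0.962 and 0.887). Among the 15 tested genes of the ATG8 family and its conjugation, 0 passed in either direction. At an unadjusted p under 0.05 there were 1 higher (GABARAPL1) and 1 lower (ATG16L2, -0.97 ± 0.42, adjusted p = 0.589), and with voom weights 1 was called (GABARAPL1). Both were called among the 24 knockout libraries.

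F8, which encodes factor VIII, was highly expressed in both lines, and the difference did not pass. It read 9.12, 9.22 and 9.21 in the GABARAP knockout and 9.48, 9.47 and 9.42 in the GABARAPL1 knockout, from 2764 and 4147 reads over the 3 libraries of each. The groups did not overlap and each was tight, with SDs of 0.057 and 0.033 (n = 3 each). The difference was -0.27 ± 0.22 (SE, 1.21-fold) with adjusted p = 0.888 in limma. The limma SE rests on the spread within all groups of the series. Of these groups the parental HEK line, with 0, 0 and 2 reads of F8, had the largest SD, 0.756. The adjusted p was 0.321 among the 24 knockout libraries and 0.358 with the 6 libraries alone. Within the 18 libraries of the other knockouts F8 ran from 8.75 to 9.93, a span that holds both lines. HEK28 read 8.35, 8.01 and 8.49 for F8, below every library of both lines. LMAN1, the cargo receptor that carries factor VIII out of the endoplasmic reticulum, read 6.75, 6.98 and 7.11 in the GABARAP knockout and 7.81, 7.64 and 8.02 in the GABARAPL1 knockout. The LMAN1 difference was -0.88 ± 0.26 (SE, 1.84-fold), with no overlap and adjusted p = 0.184. It passed among the 24 knockout libraries (adjusted p = 0.03) and with voom weights (0.0033). LMAN1 lies on chromosome 18, in one of the stretches described below. Leaving out the LMAN1 knockout, the other 15 knockout libraries ran from 7.48 to 8.01, above all 3 GABARAP knockout libraries. HEK28, from which both lines derive, read 6.89, 6.73 and 7.99 for LMAN1 and so overlapped the GABARAP knockout. The parental HEK line read 7.52, 7.30 and 7.78. MCFD2, the partner of LMAN1, had a difference of -0.35 ± 0.28 (adjusted p = 0.885).

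**Figure D1:**
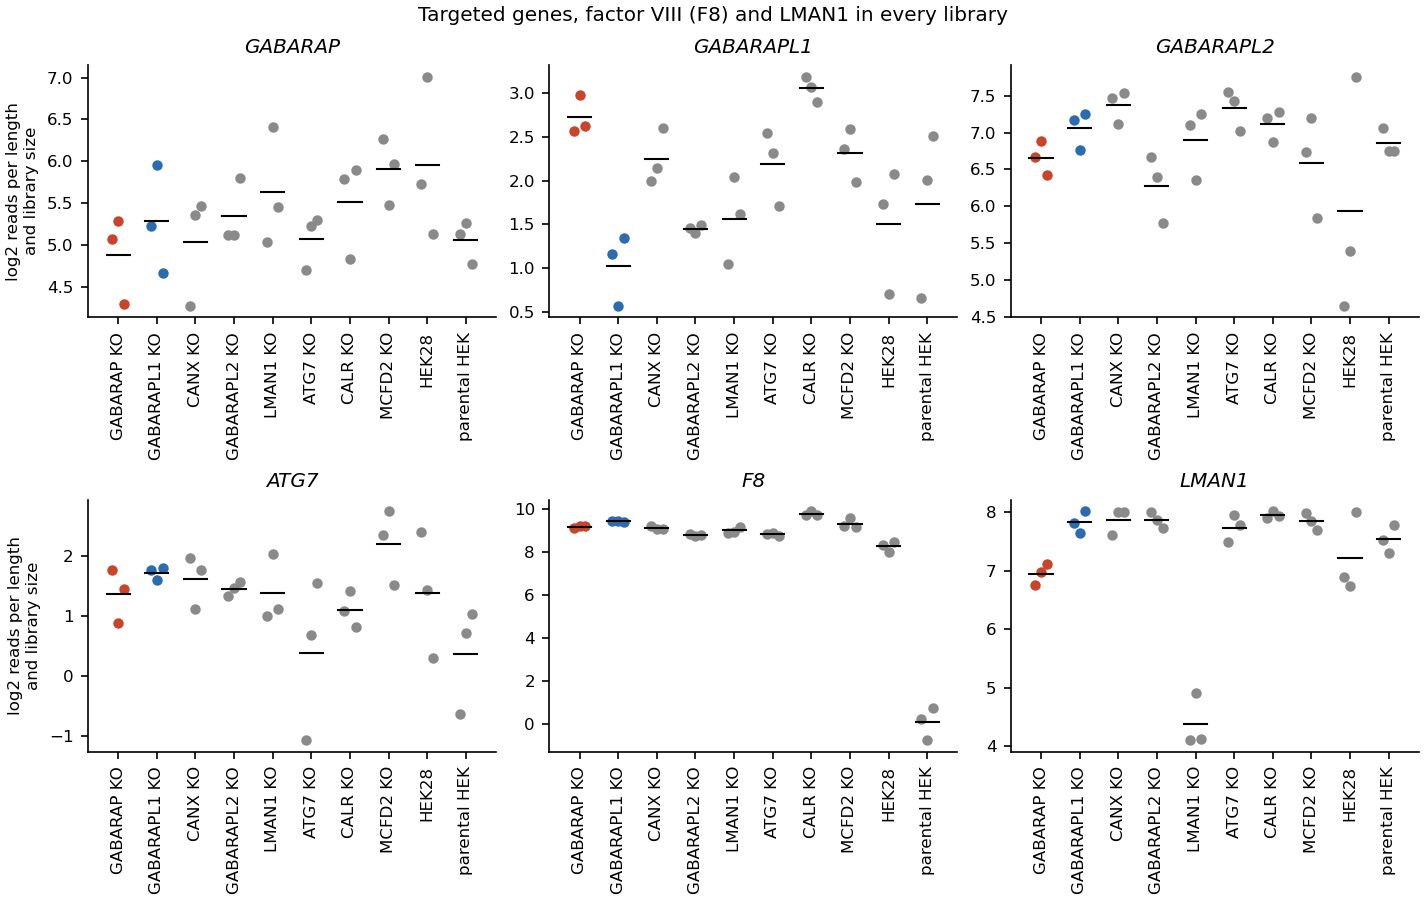
Level of 6 genes in every library (vertical axis, log2 reads per length and library size; 3 points per group, black line the mean; red the GABARAP knockout, blue the GABARAPL1 knockout, grey all other groups; KO, knockout; axes do not start at 0). GABARAPL1 is at 0.57 to 1.34 in its own knockout, GABARAP overlaps between the lines, and LMAN1 is lower in the 3 GABARAP knockout libraries (6.75 to 7.11) than in the 3 GABARAPL1 knockout libraries (7.64 to 8.02).

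Across 11295 tested genes 48 passed, which is 0.425%. Of these 8 were higher (0.0708% of tested genes) and 40 lower (0.354%) in the GABARAP knockout, and all 48 had no overlap between the 3 libraries of each line, as had 19.1% of all genes tested. The sizes ran from 0.54 to 5.31 on the log2 scale, and 40 of the 48 were 2-fold or more. The median difference of all genes was -0.02. The count moved with the fit: 131 genes (1.16%) passed among the 24 knockout libraries and 150 (1.34% of 11228 genes) with voom weights and TMM scaling together, whereas 8 passed with the 6 libraries alone and 13 to 31 when 1 library was left out. All 48 passed among the 24 knockout libraries, and 10 passed in each of the 6 fits that leave out 1 library: NOV, RPL22L1, BEX1, NARS, TDRD3, SNRNP25, the long noncoding RP11-256I9.2, RP11-69I8.2 and RP3-467D16.3, and the pseudogene RP11-20O24.4. By contrast 18 of the 48 passed in none of the 6, so those calls need all 6 libraries.

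The largest differences among well-read protein-coding genes were in NOV and RPL22L1, with the GABARAP knockout below and the GABARAPL1 knockout above every other knockout library. NOV (CCN3, chr8:119416306-119424353) encodes a secreted matricellular protein of the CCN family. It read 4.77, 4.72 and 5.43 in the GABARAP knockout and 8.45, 8.12 and 8.16 in the GABARAPL1 knockout, from 155 and 1714 reads, a difference of -3.27 ± 0.24 (SE, 9.66-fold, adjusted p = 8.64e-09, limma). The 18 other knockout libraries ran from 5.58 to 7.60 and HEK28 from 6.80 to 7.93. RPL22L1 (chr3:170864875-170870483), a paralog of the ribosomal protein RPL22, read 2.10, 2.31 and 1.66 against 5.47, 4.81 and 5.41, from 71 and 961 reads. Its difference was -3.21 ± 0.41 (9.22-fold, adjusted p = 0.000126), and the other knockouts ran from 2.62 to 4.58. For RPL22L1 HEK28 read 1.64, 1.05 and 3.56 and the parental HEK line 2.33, 2.13 and 2.37. The GABARAP knockout thus lay within the range of HEK28 for this gene. RPL22 itself was at 6.84, 6.93 and 6.76 against 6.32, 6.29 and 6.43, opposite in sign to RPL22L1, with a difference of 0.50 ± 0.14 that did not pass (adjusted p = 0.148); with voom weights it was called at adjusted p = 0.00108.

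BEX1 (chrX:103062651-103064240), a small brain-expressed X-linked gene, had 0 reads in all 3 GABARAP knockout libraries and 10, 4 and 29 in the GABARAPL1 knockout libraries (adjusted p = 0.000213). Against the limit of 3 reads that a count of 0 over the 3 libraries allows, it was at least 11.4-fold lower in the GABARAP knockout. The other knockouts spread from 1.77 to 7.38, so that they reached both lines. Its relatives on the same chromosome did not follow: BEX2, BEX3 and BEX4, chosen after the BEX1 values were seen, had differences of 0.10 ± 0.31, -0.31 ± 0.22 and -0.13 ± 0.38, and 0 of these passed (adjusted p of 0.984, 0.848 and 0.983). MAGEB2, a cancer-testis antigen gene on the X chromosome, was also lower, with 7 reads against 52, a difference of -2.99 ± 0.66 and adjusted p = 0.0428. It kept its call in 1 of the 6 fits without a library. In all, 6 of 415 tested X-linked genes were called lower and 0 higher (1.45%, against 0.425% of all genes), and 64.6% of the 415 had a negative difference. Beyond BEX1 and MAGEB2 they were the long noncoding RP3-326I13.1, the GABA receptor subunit gene GABRA3 (0 reads against 17, at least 4.52-fold lower), the clathrin adaptor subunit gene AP1S2 (-0.99 ± 0.21) and the zinc finger gene ZNF711 (-0.89 ± 0.19).

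Long noncoding transcripts held the extremes of the comparison. RP11-256I9.2 (chr16:65190973-65234914) read -1.90, -3.27 and -2.96 in the GABARAP knockout and 2.94, 1.64 and 3.23 in the GABARAPL1 knockout. That is 2 reads against 210, a ratio of 83.7 per read sequenced with an exact 95% counting interval of 22.9 to 695 (adjusted p = 0.000213). RP3-467D16.3 (chr6:16259101-16264553), annotated as an antisense transcript, had 7 reads against 483 (-5.31 ± 0.67, adjusted p = 0.000105). Whether reads were counted by strand is not given in the sources used here, so reads of a gene on the opposite strand could not be told apart. RP11-69I8.2 had 0 reads against 67 and was at least 17.8-fold lower (adjusted p = 0.00292), and RP3-326I13.1 had 5 against 73 (adjusted p = 0.00942, kept in 3 of the 6 fits without a library). These 4 were variable across the series: the 18 other knockout libraries spanned -6.25 to 3.77 for RP11-256I9.2 and -4.55 to 5.28 for RP3-467D16.3. CASC9, a noncoding transcript named for its link to cancer susceptibility, was milder, at 11 reads against 47 (-1.78 ± 0.40, adjusted p = 0.0441, kept in 0 of the 6).

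**Figure D2:**
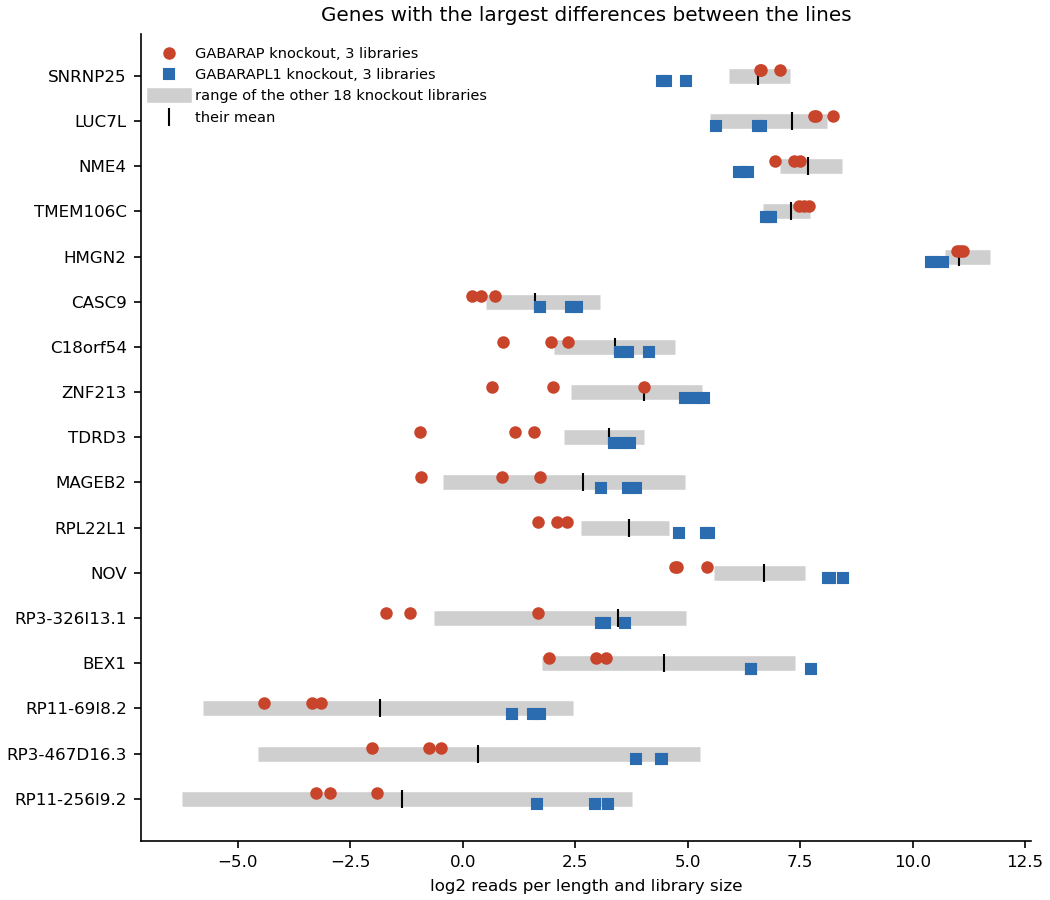
The 17 genes with the largest differences by the rule for naming genes (horizontal axis, log2 reads per length and library size; red circles the 3 GABARAP knockout libraries, blue squares the 3 GABARAPL1 knockout libraries, grey bar the range and black tick the mean of the 18 libraries of the other 6 knockouts). For NOV and RPL22L1 the lines lie on opposite sides of the grey bar; for SNRNP25, NME4 and HMGN2 the GABARAPL1 knockout lies below it.

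Of the 40 genes called lower, the other 6 knockouts stood nearer to the GABARAPL1 knockout for 35 and nearer to the GABARAP knockout for 5. All 8 genes called higher had the other knockouts nearer to the GABARAP knockout. This is a description of mean levels over 18 libraries, with no test. Among the lower genes CXCR4, the chemokine receptor, read 2.93, 3.80 and 3.59 in the GABARAP knockout and 5.36, 4.64 and 5.35 in the GABARAPL1 knockout (-1.68 ± 0.32, adjusted p = 0.0166), with a mean of 4.90 in the other knockouts. STMN3, a microtubule-destabilising stathmin, had a difference of -1.71 ± 0.36 (adjusted p = 0.0322). RAB14, a GTPase of the endosome and Golgi, fell by 0.56 ± 0.12 on the log2 scale (690 reads against 1268), and RAB12, an endosomal GTPase whose gene lies in the first stretch of chromosome 18 described below, fell by 1.05 ± 0.24. The insulin-like growth factor binding protein gene IGFBP4 had 0 reads against 13, at least 3.45-fold lower, as had the long noncoding AC005301.9. ZC3HAV1, an antiviral zinc finger gene (-1.13 ± 0.25), and CYFIP2, of the WAVE actin regulatory complex (-1.02 ± 0.23), were lower as well. CXCR4, STMN3, RAB14, RAB12 and these 4 were named after their values were seen.

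The positions of the called genes were uneven. Chromosomes 13 and 18 held 17 of the 40 genes called lower and 0 of the 8 called higher. With 364 tested genes, the pair had 4.67% called, against 0.284% of the 10931 genes on all other chromosomes. On chromosome 18 the called count was 11 of 166 genes (6.63%), and on chromosome 13 it was 6 of 198 (3.03%). Outside these chromosomes and the end of chromosome 16 described below, 27 of 10906 genes were called, 4 higher and 23 lower (0.248%).

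Windows of 25 neighbouring tested genes showed the same unevenness without regard to which genes had been called. Of 439 windows, 8 had a median difference beyond 0.5 in size, 7 lower and 1 higher. They joined into 5 stretches on chromosomes 13, 16 and 18, for which no test was made. On chromosome 18 the first window (chr18:158383-9862551) had a median of -0.90, with 22 of 25 genes lower. A second stretch of 50 genes (chr18:47853233-74523454) had a median of -0.96, with 42 lower. Between them the windows had medians of -0.38, 0.03 and -0.12, so the lower level was not that of the whole chromosome. On chromosome 13 the stretches chr13:25301524-50723236 (75 genes, median -0.66, 64 lower) and chr13:75283503-96053482 (25 genes, median -0.61, 22 lower) were interrupted by a window at -0.36, and the windows at either end stood at -0.49 and -0.50, just inside the limit. All 7 windows of chromosome 13 were thus negative, and 82.8% of its tested genes were lower. On chromosome 16 the first window (chr16:46407-735525), at the end of the short arm, had a median of 0.65, with 21 of 25 genes higher. Off these chromosomes the windows with the largest medians were on chromosome 12 (0.47), chromosome 1 (0.46) and chromosome 3 (-0.45).

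**Figure D3:**
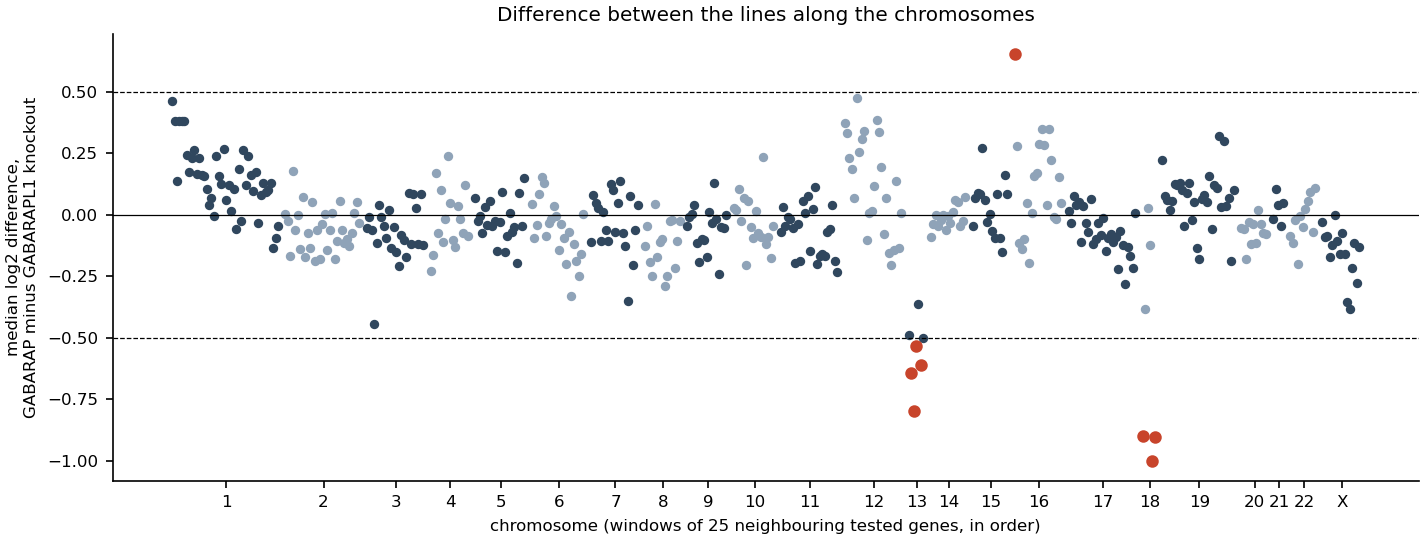
Median log2 difference, GABARAP minus GABARAPL1 knockout (vertical axis), of each window of 25 neighbouring tested genes, in order along the chromosomes (horizontal axis; shades alternate by chromosome; dashed lines at -0.5 and 0.5; red, beyond them). The 7 red windows below lie on chromosomes 13 and 18 and the 1 above on chromosome 16.

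Which line departed from the rest differed by stretch. These per-library values were chosen after the stretches were seen, and are medians over the genes of a stretch relative to the mean of the 18 other knockout libraries. The first stretch of chromosome 18 stood at -0.86, -0.95 and -1.01 in the GABARAP knockout and at -0.02, -0.19 and -0.08 in the GABARAPL1 knockout. The second stood at -0.63, -0.84 and -0.94 against 0.15, 0.00 and 0.06. For both, the GABARAP knockout libraries were below all 18 of the others, which ran from -0.24 to 0.23 and from -0.14 to 0.31; in the parental HEK line the first stretch was low too, at -0.78 to -0.36. The longer stretch of chromosome 13 stood at -0.55, -0.44 and -0.52 in the GABARAP knockout and at 0.17, 0.07 and 0.14 in the GABARAPL1 knockout, and the MCFD2 knockout had a mean of -0.51 there, so the GABARAP line was not alone in it. The shorter stretch stood at -0.36, -0.62 and -0.88 against 0.10, 0.10 and 0.15, with a mean of -0.54 in the MCFD2 knockout. There HEK28, from which both lines derive, ran from -0.75 to -0.04 and the parental HEK line from -0.35 to -0.09, so that the GABARAP knockout overlapped HEK28. The end of chromosome 16 was the reverse: the GABARAP knockout stood at -0.06, -0.02 and 0.02, and the GABARAPL1 knockout at -0.82, -1.06 and -0.60, below all 18 others (-0.42 to 0.30). The parental HEK line was at -0.58 to -0.30 there. The number of copies of these regions was not measured.

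**Figure D4:**
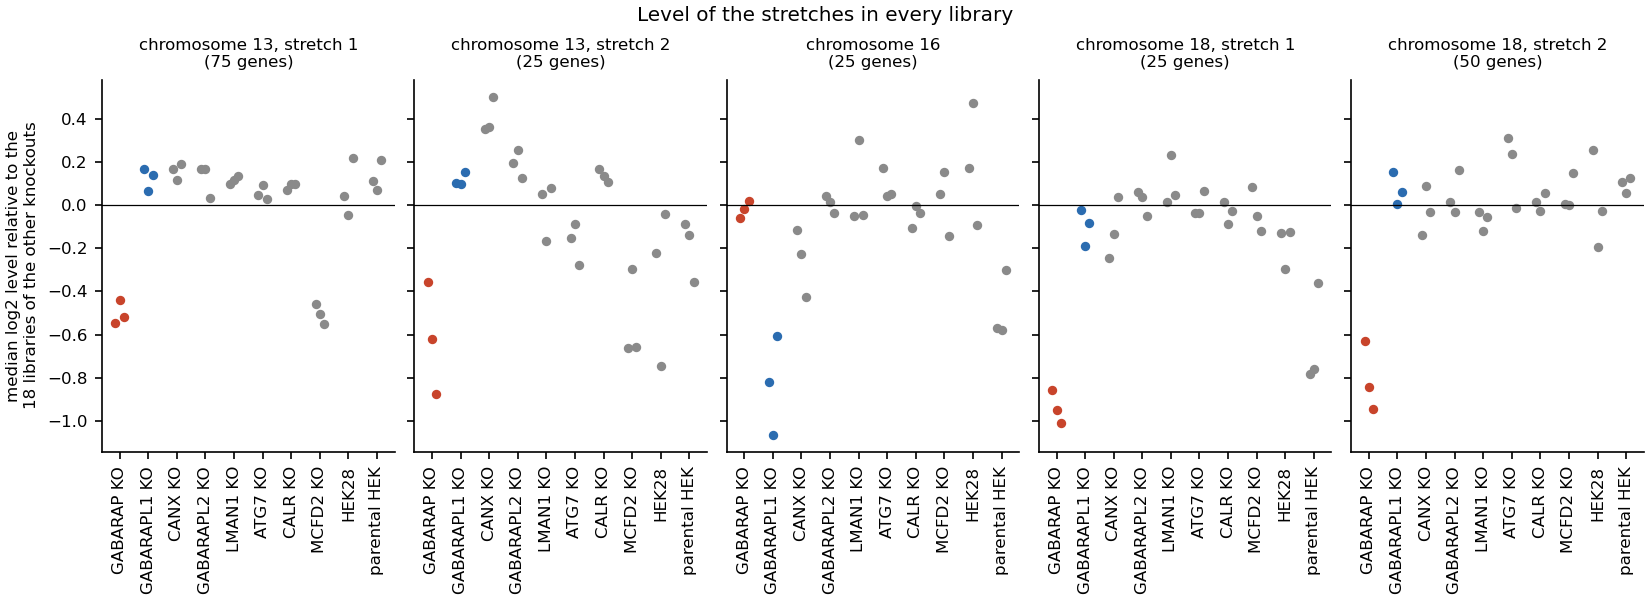
Median log2 level of the genes of each stretch in every library relative to the mean of the 18 libraries of the other 6 knockouts (vertical axis; 3 points per group; red the GABARAP knockout, blue the GABARAPL1 knockout, grey all other groups; KO, knockout). The GABARAP knockout is low on chromosomes 18 and 13, the latter together with the MCFD2 knockout, and the GABARAPL1 knockout is low at the end of chromosome 16.

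All 11 called genes of chromosome 18 were lower in the GABARAP knockout. NARS (chr18:57600656-57622213), the cytosolic asparaginyl-tRNA synthetase and a target of the stress factor ATF4, read 5.84, 6.15 and 6.47 in the GABARAP knockout and 7.66, 7.95 and 7.76 in the GABARAPL1 knockout, from 234 and 828 reads. The difference was -1.64 ± 0.20 (SE, 3.11-fold, adjusted p = 6.46e-05), and the other knockouts ran from 6.85 to 8.17, above all 3 GABARAP libraries. TYMS, thymidylate synthase, read 4.12, 3.87 and 4.02 against 5.30, 5.03 and 5.52 (-1.28 ± 0.28, adjusted p = 0.0428). NPC1, the lysosomal cholesterol exporter, read 1.17, 1.38 and 0.56 against 2.82, 2.51 and 2.43 (-1.55 ± 0.35, adjusted p = 0.0499); it lies in the window with a median of 0.03 and is not part of a stretch. Neither TYMS nor NPC1 kept its call in any fit without 1 library. VAPA, an endoplasmic reticulum tether at membrane contact sites, fell by 1.27 ± 0.28, and KDSR, an enzyme of sphingolipid synthesis, by 1.06 ± 0.24. Like NPC1, VAPA lies outside the stretches, in the window with a median of -0.38. PMAIP1 (NOXA), a pro-apoptotic BCL2 family gene, fell by 1.13 ± 0.23, and MBD2, a methyl-CpG binding protein gene, by 1.22 ± 0.22. The remaining calls on the chromosome were C18orf54 (-2.03 ± 0.40), the transcription factor gene ONECUT2 (-1.51 ± 0.34), RAB12 and the proteasome-associated deubiquitinase gene USP14 (-0.96 ± 0.19). Among the 4 genes with the largest differences in each stretch, FECH, the last enzyme of heme synthesis (-1.91 ± 0.75, adjusted p = 0.489), WDR7 (-2.31 ± 0.64, 0.148), RP11-35G9.3 (-2.47 ± 0.57, 0.0504), PPP4R1 (-1.41 ± 0.46, 0.283) and the near-identical myosin light chain genes MYL12A (-1.69 ± 0.76, 0.615) and MYL12B (-1.28 ± 0.33, 0.112), whose reads may be shared, did not pass.

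On chromosome 13 the 6 called genes had differences from -2.95 to -0.78. TDRD3, a Tudor domain protein gene that partners topoisomerase TOP3B, read -0.95, 1.58 and 1.16 in the GABARAP knockout and 3.58, 3.71 and 3.36 in the GABARAPL1 knockout (6 reads against 53, adjusted p = 0.00282). The other knockouts ran from 2.25 to 4.02, so the GABARAP libraries lay below all 18. KCTD12, an auxiliary subunit of GABA-B receptors, fell by 1.61 ± 0.36 (adjusted p = 0.0451), KBTBD6, an adaptor of a ubiquitin ligase that binds GABARAP family proteins, fell by 1.28 ± 0.27 (0.0322), and AKAP11, a kinase anchoring protein gene, fell by 1.21 ± 0.23 (0.0167). KBTBD6 was named after its values were seen; it read 7.73, 7.76 and 7.63 against 9.00, 8.73 and 9.22 and did not keep its call without 1 library (adjusted p up to 0.163). The mitotic gene CKAP2 (-0.78 ± 0.18) and FAM155A (0 reads against 12, at least 3.19-fold lower) complete the set. TDRD3, CKAP2 and FAM155A lie outside the stretches, TDRD3 and CKAP2 in the window at -0.36 and FAM155A in the window at -0.50. SUCLA2, a subunit of succinyl-CoA ligase in the tricarboxylic acid cycle, had the largest difference in the longer stretch, -1.95 ± 0.58, and did not pass (adjusted p = 0.194); nor did FLT1 and TSC22D1 in it, or SLAIN1, SPRY2 and RNF219 in the shorter one (adjusted p from 0.121 to 0.529).

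At the end of chromosome 16 the GABARAPL1 knockout was the low line. SNRNP25 (chr16:53010-57669), a protein of the minor spliceosome, read 6.60, 6.63 and 7.05 in the GABARAP knockout and 4.42, 4.96 and 4.52 in the GABARAPL1 knockout (2.13 ± 0.26, 4.37-fold, adjusted p = 6.46e-05). The other knockouts ran from 5.91 to 7.27, above all 3 GABARAPL1 libraries. Its neighbour RHBDF1, an inactive rhomboid protease gene, had 6, 4 and 7 reads in the GABARAP knockout and 0 in all 3 GABARAPL1 libraries, at least 7.11-fold higher (adjusted p = 0.00554; 0.0518 at most without 1 library). LUC7L, a splicing factor gene, read 7.81, 8.24 and 7.86 against 6.63, 5.64 and 6.55 (1.70 ± 0.31, adjusted p = 0.0116), and NME4, a mitochondrial nucleoside diphosphate kinase gene, 6.95, 7.50 and 7.37 against 6.15, 6.26 and 6.34 (1.02 ± 0.22, adjusted p = 0.0425). AXIN1, a scaffold of beta-catenin destruction (2.09 ± 0.58, adjusted p = 0.148), and NPRL3, a subunit of an inhibitor of mTORC1 (1.85 ± 0.52, adjusted p = 0.161), did not pass.

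The other genes called higher lay elsewhere. TMEM106C on chromosome 12 read 7.48, 7.58 and 7.69 against 6.80, 6.74 and 6.85 (0.78 ± 0.17, adjusted p = 0.0322). HMGN2, a nucleosome-binding protein gene on chromosome 1, read 10.99, 11.12 and 11.05 against 10.45, 10.67 and 10.40 (0.54 ± 0.12, adjusted p = 0.0441); processed copies of it exist in the genome, so its reads may be shared with them, and whole reads were not recovered for it. ARMC5, further along the short arm of chromosome 16, had 29 reads against 10 (1.87 ± 0.42, adjusted p = 0.0441). CD4 on chromosome 12 rested on 6 reads against 0, at least 2.51-fold higher, and was not called with voom weights (adjusted p = 0.209). Blood cell markers varied between the libraries, as given above, and their part in it was not tested. ARMC5 and CD4 have under 30 reads and fall outside the rule for named genes. Lower on chromosome 16, away from its end, were ZNF213 (13 reads against 67, -2.94 ± 0.66, adjusted p = 0.0441, kept in 1 of the 6 fits without a library) and the splicing gene RNPS1 (-0.64 ± 0.13, adjusted p = 0.0322).

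The pair of called pseudogenes on chromosome 1 are near-identical to a gene of chromosome 18. RP11-20O24.4 (chr1:108992282-108992836) read 6.22, 6.18 and 6.22 in the GABARAP knockout and 7.32, 7.11 and 7.40 in the GABARAPL1 knockout (-1.07 ± 0.17, adjusted p = 0.00282), and RP4-706A16.3 (chr1:77129114-77129668) had a difference of -1.03 ± 0.20 (adjusted p = 0.0166). Each is 555 bases long and matched RPL17, a ribosomal protein gene on chromosome 18, over all 555 bases at 99.3% identity, with 4 differences. The first 60 bases of the match are shown because they hold 2 of the 6 positions at which either copy differs from RPL17, in capitals.
RPL17: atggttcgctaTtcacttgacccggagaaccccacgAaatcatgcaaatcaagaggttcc
RP11-20O24.4: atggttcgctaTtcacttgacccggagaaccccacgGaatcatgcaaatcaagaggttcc
RP4-706A16.3: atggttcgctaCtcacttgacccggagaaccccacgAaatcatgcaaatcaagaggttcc
Reads from RPL17 and from these copies could therefore be counted for either. RPL17 itself read 7.53, 7.48 and 7.11 against 8.05, 8.10 and 7.64, lower in every GABARAP library, with a difference of -0.56 ± 0.31 that did not pass (adjusted p = 0.738).

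Energy pathways, which the series title names, showed 0 calls. Across 9 lists (glycolysis, the tricarboxylic acid cycle, complex I, complexes III and IV, ATP synthase, fatty acid oxidation, mitochondrial biogenesis, the mitochondrial ribosome and AMPK with mTORC1 signalling) 278 genes were tested with limma and the median difference was -0.06. In glycolysis 11 of 20 genes were higher, in complex I 19 of 38, in the mitochondrial ribosome 35 of 71, in ATP synthase 5 of 18 and in the tricarboxylic acid cycle 8 of 30. An unadjusted p under 0.05 was reached by 21 of them (7.55%), against 7.54% of all genes. Of all genes 1.34% were called with voom weights and 1.16% among the 24 knockout libraries. With voom weights 5 were called: ENO1 (0.55 ± 0.17), LDHB (0.40 ± 0.14), the complex I subunit gene NDUFA9 (0.58 ± 0.20) and MFN2, a gene of mitochondrial fusion (0.83 ± 0.25), higher in the GABARAP knockout, and ATP5A1 (-0.90 ± 0.24), the alpha subunit of ATP synthase, lower. Among the 24 knockout libraries 2 were called, ATP5A1 and ACAA2 of fatty acid oxidation (-1.23 ± 0.32), both lower and both on chromosome 18. ATP5A1 read 6.01, 6.03 and 5.83 against 7.09, 6.51 and 6.97. Changes in this comparison were also simulated in genes drawn at random from 11228 tested genes, 100 of each size. Of the 2-fold changes 42% were recovered and of the 4-fold changes 82%, and 3 unchanged genes were called. Each simulated gene took the median spread of genes of like level, so genes with a larger spread were not represented. Differences of 2-fold or less would mostly be missed among such genes at this depth, and recovery within these lists was not simulated.

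Of all 28 lists of pathways, 25 had 0 calls and the other 3 had 1 each, namely NPC1 in the lysosome list, NARS among the ATF4 targets and TYMS in DNA replication, all lower and all on chromosome 18. That is 3 of 807 genes in any list (0.372%), near the 0.425% of all genes. Of the 807, 77 had an unadjusted p under 0.05, 20 were called with voom weights and 14 among the 24 knockout libraries. Over all genes the shares were 7.54%, 1.34% and 1.16%, each below that of the lists. The ATF4 list did not move as one: beside NARS, 15 of its 34 genes were higher and the median was -0.07. At an unadjusted p under 0.05 it had 3 genes higher and 4 lower. Of its other tRNA synthetase genes, SARS (0.46 ± 0.20), EPRS (0.34 ± 0.16) and AARS (0.54 ± 0.26) had differences of the opposite sign that did not pass (adjusted p of 0.594, 0.632 and 0.646). They were named after their values were seen, and CARS, GARS, WARS and MARS of the same list are not reported here. In the lysosome list 18 of 29 genes were lower, with a median of -0.30 and, beside NPC1, low values for CTSL, the protease cathepsin L (-2.57 ± 0.74, adjusted p = 0.17, and 0.0351 among the 24 knockout libraries), and MITF, a transcription factor of lysosomal genes (-1.93 ± 0.52, 0.125). The early secretory list, with the coat proteins and factor VIII carriers, had a median of -0.07 over 38 genes, and LMAN1 was its only call with voom weights. The unfolded protein response list stood at -0.20 over 25 genes, with DERL1, a channel component of degradation from the endoplasmic reticulum, at -1.25 ± 0.36 (adjusted p = 0.167). DERL1 was called with voom weights (adjusted p = 0.0396) and among the 24 knockout libraries (0.0447). With 0 calls each, 18 of 20 interferon and inflammatory genes, 12 of 18 hypoxia targets and 15 of 22 p53 targets were lower, with medians of -0.31, -0.35 and -0.26. Cytosolic ribosomal proteins were even, 39 higher and 40 lower of 79, with a median of -0.01, and G2 and mitosis genes had 19 of 31 higher (median 0.07). Medians of the 28 lists ran from -0.36 for extracellular matrix and adhesion (26 of 34 lower, 0 called) to 0.20 for cytosolic heat shock chaperones (14 of 22 higher, 0 called).

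**Figure D5:**
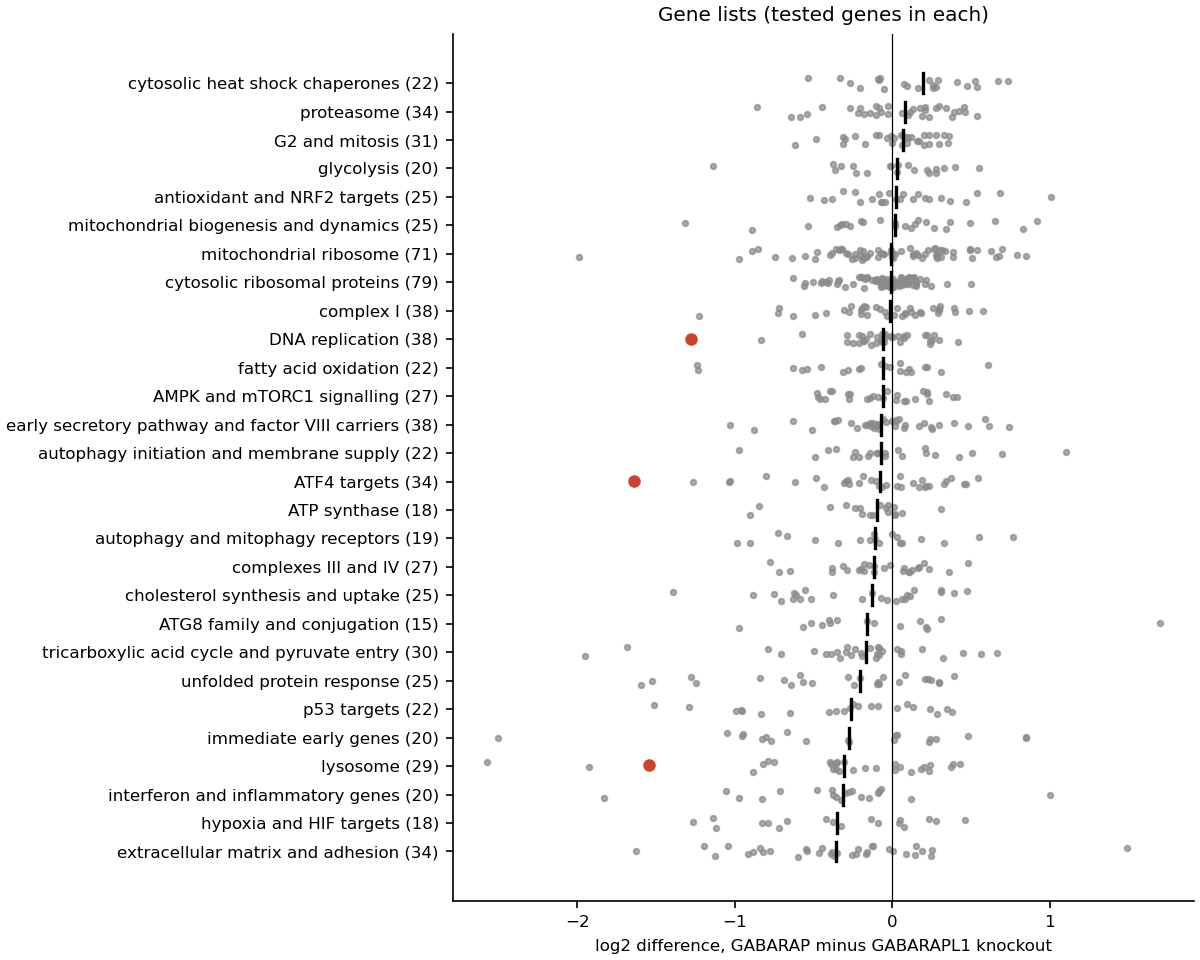
Log2 difference, GABARAP minus GABARAPL1 knockout (horizontal axis), of each tested gene of the 28 lists (grey points; red, adjusted p under 0.05; black bar, median of the list; number of tested genes in brackets; points spread vertically for visibility). The 3 red points are NPC1, NARS and TYMS, all to the left of 0.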

How the data were processed

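RNA was sequenced as 3' RNA-seq, per the labels. FastQC, cutadapt, TopHat2, Bowtie and hg38 appear in the submitters' processing notes; the counter, the annotation and the use of strand are not given in those notes. The authors deposited log2 values of 16975 genes in 30 libraries. The steps of the values show whole reads plus 0.5 per gene length and library size, up to a constant, and reads were recovered for 16908 genes. Genes with at least 10 reads at the median depth in 3 libraries, and 15 in all, were tested with limma 3.58.1 (R 4.3.3; trend and robust moderation; 1 model of all 30 libraries). P-values are two-sided and adjusted by Benjamini-Hochberg over 11295 genes. Counting intervals and limits cover counting error only. Positions are from GENCODE 29 (GRCh38), and pseudogene matches from BLAST+ 2.17.0. The fit was tested on simulated data.

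Named genes are the targeted genes, GABARAPL2, ATG7 and F8, up to 12 genes per direction with adjusted p under 0.05, no overlap and at least 30 reads in the higher line, the called members of each list, and up to 4 genes per stretch; all others were named after their values were seen. Not every gene that the rule selects is reported here. The comparison and the lists were chosen with earlier results of these data known. Alternatives changed the libraries fitted, scaling, weights, offset, filter, moderation, replicate block and window size, and left out each library in turn.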

Additional observations from a re-analysis of the deposited data

How the results depend on the processing

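The count of 48 genes (8 higher, 40 lower in the GABARAP knockout) moved under several alternatives. It was 131 (33 and 98) among the 24 knockout libraries, 150 (57 and 93) with voom weights and TMM scaling, 28 (4 and 24) with no filter on low values, and 8 (1 and 7) with the 6 libraries alone. Leaving out 1 library gave 13 to 31 genes (2 to 4 higher, 11 to 28 lower); the lowest count was without GABARAP knockout replicate 1, and each of the 6 libraries moved it by over 1.5 times. Quantile normalisation, an offset of 2 reads, the filter on the 6 libraries and no trend or robust moderation gave 38, 38, 42 and 44. Of the 48 genes, 48 passed among the 24 knockout libraries, 38 with voom weights and 7 with the 6 libraries alone. No called gene or stretch reversed its direction under the alternatives run. Without 1 library BEX2 ran from -0.21 to 0.34 and BEX4 from -0.39 to 0.10, so the sign of these uncalled differences was not stable. The GABARAPL1 transcript, at 1.70 and short of the threshold, passed at 1.70 among the 24 knockout libraries, with the filter on the 6 libraries and without trend and robust moderation, and at 1.58 with voom weights and with the offset of 2 reads; its difference without 1 library ran from 1.47 to 1.86. The cause of these shifts was not tested.

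Same-numbered replicates of the lines did not deviate together (correlations of 0.06, -0.03 and -0.08 across genes for numbers 1, 2 and 3). Differently numbered replicates had correlations of -0.07 to 0.12. No pairing by number was thus seen, and whether same-numbered libraries shared a culture or day was not tested. With the replicate block over all libraries 38 genes passed, all among the 48, and with the replicate block and the 6 libraries alone, an alternative added after seeing the data, 0 passed (0 higher, 0 lower; 1207 at an unadjusted p under 0.05, limma). Stretch medians without 1 library ran from -0.72 to -0.57 and from -0.74 to -0.47 on chromosome 13, from 0.58 to 0.88 on chromosome 16, and from -0.98 to -0.82 and from -1.01 to -0.88 on chromosome 18. The longer stretch of chromosome 13 was -0.60 with voom weights (added after seeing the data) and -0.58 with windows of 40 genes, the second of chromosome 18 was -0.75 with windows of 40, and the end of chromosome 16 was 0.92 with windows of 15. Depth limits the low genes: 7 of the 48 had under 30 reads in the higher line.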
